A study of Homo sapiens with 12 samples.

Results

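The long arm of chromosome 9 was examined through 59 of its genes in RNA of DU145, a human prostate cancer cell line in long use. All 59 were found among 56832 genes of the table, and 58 of them were among the 17367 genes that averaged 1 TPM or more in at least one genotype. PTCH1, a receptor of the hedgehog pathway, was the one below that level, between 0 and 0.701 TPM in all libraries. TPM is a level per transcript length that sums to 1000000 in each library, so sequencing depth cannot be read from it and is unknown. The genes were chosen by their place on the arm and on measured values: the log2(TPM + 1) of each line minus the mean of the RAC1-positive lines, with the clones of one guide set against the clone of the other. Those differences are therefore given below as descriptions, with no test.

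The study set RAC1 knockout clones against lines that carry RAC1, a small GTPase that drives actin-based cell protrusion. Clones 2 and 3 of the knockout (sgRAC1 clones 2 and 3) came from the guide sgRAC1_2 and carry the genotype RAC1_KO. sgRAC1 clone 1 has the same genotype and came from the guide sgRAC1_1. The RAC1-positive lines, labelled WT, were sgNTC clones 1 and 2, made with the non-targeting guide sgNTC_1, and the parental line, which has no guide in its labels. Clones were grown from single cells after transfection with guide and Cas9, so each knockout and sgNTC line is 1 clone. The 2 clones of one guide are the only repeat of that guide. Guide sgRAC1_1 has 1 clone. What is called a difference between the guides below therefore cannot be told apart from traits of the single clones. All 6 lines grew in RPMI with 10% fetal bovine serum. Each was sequenced in 2 biological replicates, 1 per labelled batch, so p-values of line contrasts rest on how far paired libraries of the same line lie apart and not on differences between clones.

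The genes of a chromosome arm form no pathway. They share position: an arm is replicated, packaged and handed to daughter cells as a whole, and cancer cell lines often carry some arms in unusual numbers. The long arm of chromosome 9 holds genes of very different work, among them the cell cycle subunit CKS2, the RNA-binding protein HNRNPK, the translocon subunit SEC61B, the receptor TGFBR1 and the kinase ABL1. The values below are RNA levels, and no DNA was measured in the files used here. In RNA from a bulk culture, fewer cells with a transcript and less of it per cell cannot be told apart.

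Promoters were read from RefSeq (GRCh38.p14, 250 bases before to 50 after the start) for 55 of the 59 genes. Those of 4 genes are printed to show the range of start sites along the arm: ANXA1, the first of the listed genes from the centromere, CKS2, the most abundant, TGFBR1, the one with the lowest difference between guides, and EDF1, the last before the telomere. They lie at chr9:73151615-73151914 (plus strand), chr9:89310945-89311244 (plus), chr9:99104863-99105162 (plus) and chr9:136866259-136866558 (minus). The TGFBR1 window lies past 99103647, the first base of that gene in RefSeq, so it was read at a start further along the gene. Capitals mark the GC box with the letters GGGCGG, the CCAAT box and the TATA box with the letters TATAAA on either strand, none of which overlap here. On the reverse strand the GC box reads CCGCCC, the CCAAT box reads ATTGG and the TATA box reads TTTATA.
ANXA1: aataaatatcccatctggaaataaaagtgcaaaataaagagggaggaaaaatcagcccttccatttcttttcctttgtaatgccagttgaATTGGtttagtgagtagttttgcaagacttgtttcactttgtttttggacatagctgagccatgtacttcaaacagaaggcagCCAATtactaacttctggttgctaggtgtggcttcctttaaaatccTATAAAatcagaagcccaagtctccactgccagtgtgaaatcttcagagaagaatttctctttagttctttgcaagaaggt
CKS2: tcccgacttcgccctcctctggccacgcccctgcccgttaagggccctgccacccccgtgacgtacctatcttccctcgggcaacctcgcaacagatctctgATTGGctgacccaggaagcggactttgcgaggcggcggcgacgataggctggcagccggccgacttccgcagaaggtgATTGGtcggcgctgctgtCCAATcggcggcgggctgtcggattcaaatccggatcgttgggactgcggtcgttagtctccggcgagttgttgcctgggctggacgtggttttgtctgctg
TGFBR1: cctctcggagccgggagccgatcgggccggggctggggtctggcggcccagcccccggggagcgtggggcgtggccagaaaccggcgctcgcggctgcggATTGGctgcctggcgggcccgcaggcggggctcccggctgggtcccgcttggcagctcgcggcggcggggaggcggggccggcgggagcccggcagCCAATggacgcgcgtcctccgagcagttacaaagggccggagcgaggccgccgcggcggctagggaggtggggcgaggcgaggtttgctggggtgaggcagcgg
EDF1: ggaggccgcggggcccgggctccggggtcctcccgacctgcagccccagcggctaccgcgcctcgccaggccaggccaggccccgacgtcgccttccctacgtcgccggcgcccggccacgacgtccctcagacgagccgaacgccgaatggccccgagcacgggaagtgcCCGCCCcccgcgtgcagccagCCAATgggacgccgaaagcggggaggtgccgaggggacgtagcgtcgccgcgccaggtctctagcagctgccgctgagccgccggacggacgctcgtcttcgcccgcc

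The 4 windows differ in base composition. ANXA1 had 37.7% G and C with a TATA box, and CKS2 64.0%, TGFBR1 78.7% and EDF1 76.7% with none. Over the 55 promoters the GC box was found in 42 (76.4%). It was found in 75.5% of 237 promoters of other arm genes that averaged 1 TPM or more in a genotype. Of all 27305 promoters of the same length, 44.6% had it. Those were not limited to expressed genes, so gaps to them are not read as traits of the arm. The CCAAT box was found in 25 (45.5%), against 36.3% of the other promoters of the arm and 35.7% of all. The TATA box was found in 3 (5.45%), against 4.64% of the other promoters of the arm and 11.95% of all. The median G and C content was 69.0% over the listed genes, 68.3% over the other genes of the arm and 58.3% over all promoters. A match describes letters only and says nothing about a bound factor.

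The libraries were checked by RAC1 first. RAC1 (chromosome 7, 6374527 to 6403967) stood between 36.5 and 59.2 TPM in the 6 knockout libraries, against 149 to 202 TPM in the 6 RAC1-positive libraries, and no library went against its label. The labelled epithelial origin was checked by the summed level of 6 epithelial markers, of which KRT8 was the highest. The sum was 375 to 754 TPM in sgRAC1 clones 2 and 3, 448 to 538 TPM in clone 1 and 273 to 802 TPM in the RAC1-positive lines. Of the 5 leukocyte markers PTPRC and CD3E were at 0, and the summed level was 1.29 to 4.23 TPM in clones 2 and 3, 0.726 to 1.59 TPM in clone 1 and 0 to 1.08 TPM in the RAC1-positive lines, with CD14 the highest. Their part in the results was not tested. The 4 endothelial and the 5 fibroblast markers summed to at most 0.791 and 0.751 TPM. One library stood apart: sgNTC clone 2 replicate 1 had 13608 genes above 0, against 20470 to 25156 in the others, and a median correlation of 0.872 with the others, against 0.936 to 0.954. The medians of each knockout clone over the listed genes and the count of genes below all other libraries are given with and without it. Other ranges, counts and arm medians that use it are given only with it.

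Transcripts of the listed genes were lower in both clones of guide sgRAC1_2 than in the clone of guide sgRAC1_1, with a change of -21.2% at the median. The median difference of log2(TPM + 1), clones 2 and 3 minus clone 1, was -0.34 over the 58 genes, and 54 of them were below 0 (93.1%). The middle of the distribution was narrow, with quartiles of -0.48 and -0.23, while single genes ran from -1.80 (TGFBR1) to 0.29 (TLE4, at a low level). Over all 17367 genes the median was 0.01.

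Set against the mean of the RAC1-positive lines, clone 2 had a median of -0.26 over the listed genes, clone 3 one of -0.23 and clone 1 one of 0.10. Over all genes these medians were 0.02, 0.03 and 0.02. The lines of guide sgRAC1_2 were thus below both clone 1 and the RAC1-positive lines, and clone 1 was slightly above the RAC1-positive lines. The line means of clones 2 and 3 were both under all 3 RAC1-positive lines for 31 of the 58 genes and both over them for 4, against 12.3% and 17.1% of all genes tested. For clone 1, 8 genes were under (13.8%) and 22 were over (37.9%) all 3 RAC1-positive lines, against 22.9% and 27.1% of all genes tested. These contrasts chose the genes, so nothing is read from the counts. Because clone 1 differs in sign, the 3 knockout clones together had a median of -0.12 against the RAC1-positive lines. That value was -0.06 against the parental line alone and -0.07 in batch 2 alone. Against the parental line alone clone 3 stood at -0.15, and against the sgNTC clones alone clone 1 stood at 0.06.

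The same lean was present in each library. Relative to the RAC1-positive mean, the medians over the listed genes were -0.27 and -0.29 in clone 2, -0.29 and -0.17 in clone 3, and 0.11 and 0.09 in clone 1. They were 0.08 and -0.15 in sgNTC clone 1, 0.19 and -0.04 in sgNTC clone 2, and -0.12 and -0.00 in the parental line. All 4 libraries of clones 2 and 3 lay below the other 8. The RAC1-positive library nearest to them was sgNTC clone 1 replicate 2, and the highest of all was sgNTC clone 2 replicate 1, the library that stands apart. Without that library the medians became -0.21 for clone 2, -0.20 for clone 3 and 0.11 for clone 1, and the difference between the guides, which does not use it, was -0.34 as before.

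**Figure D1:**
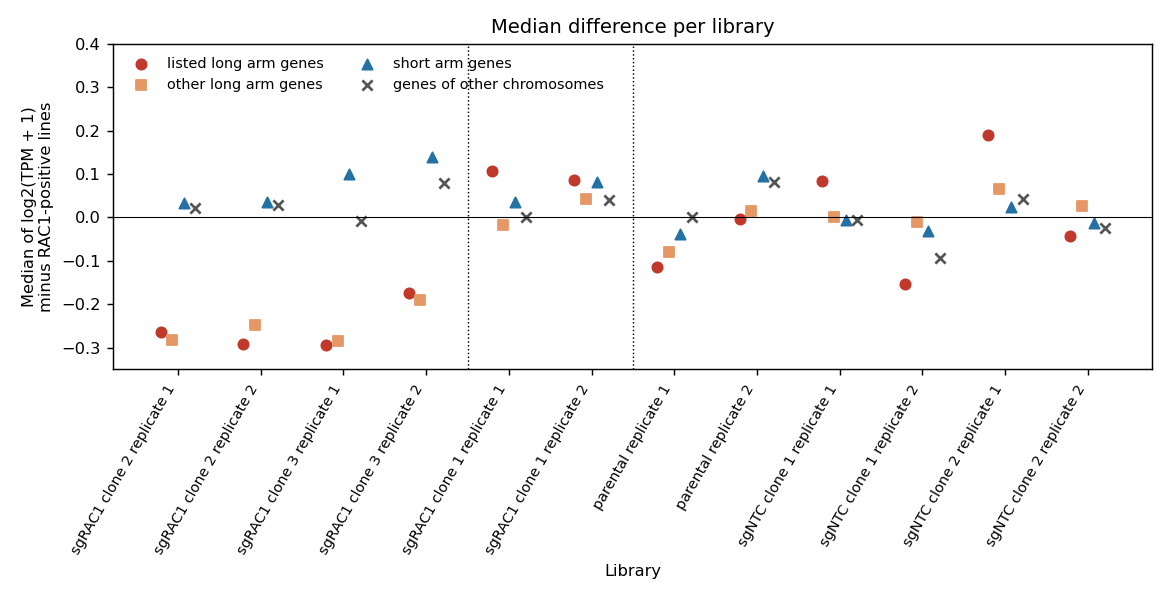
Median over genes of log2(TPM + 1) minus the mean of the RAC1-positive lines (vertical axis) in each of the 12 libraries (horizontal axis), for listed long arm genes (circles), other long arm genes (squares), short arm genes (triangles) and genes of other chromosomes (crosses). In sgRAC1 clones 2 and 3 circles and squares lie between -0.29 and -0.17 while triangles lie between 0.03 and 0.14, and in the other 8 libraries circles lie between -0.15 and 0.19.

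The other genes of the arm were examined in the same way. The 306 other genes of the long arm are not in the list, but their arm was chosen from these same libraries. Their values are therefore not independent of the choice. They had a median of -0.28 for clones 2 and 3 minus clone 1, with 253 below 0 (82.7%). That median was -0.15 with no level filter and -0.17 with a pseudocount of 5. The 147 genes of the short arm had a median of 0.02 with 69 below 0 (46.9%), and the 11634 genes of other chromosomes one of 0.01 with 5590 below 0 (48.0%). Per clone the other long arm genes stood at -0.27 in clone 2, -0.22 in clone 3 and 0.01 in clone 1, whereas the short arm genes stood at 0.05, 0.13 and 0.07. The listed genes differed from the other long arm genes in clone 1, where their median was 0.10. No test was made of the difference between the lists, since the members were chosen with these values known.

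Among 41 arms with at least 20 genes, 9q had the lowest median between the guides, -0.30 over 364 genes. These include the 58 listed genes, and the arm was chosen on these contrasts, so nothing is read from its rank. The 40 other arms lay between -0.11 (18q) and 0.11 (19p). In clone 2 the arm stood at -0.27, against -0.08 (18q) to 0.09 (Xp) elsewhere. In clone 3 it stood at -0.23, against -0.15 to 0.15 (22q) elsewhere, the lower bound being 7p, the arm that carries RAC1. In clone 1 it stood at 0.04, inside the range of -0.05 (19p) to 0.10 (12p) of the other arms. Among the RAC1-positive lines the arm stood at -0.04 in the parental line, -0.01 in sgNTC clone 1 and 0.05 in sgNTC clone 2.

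**Figure D2:**
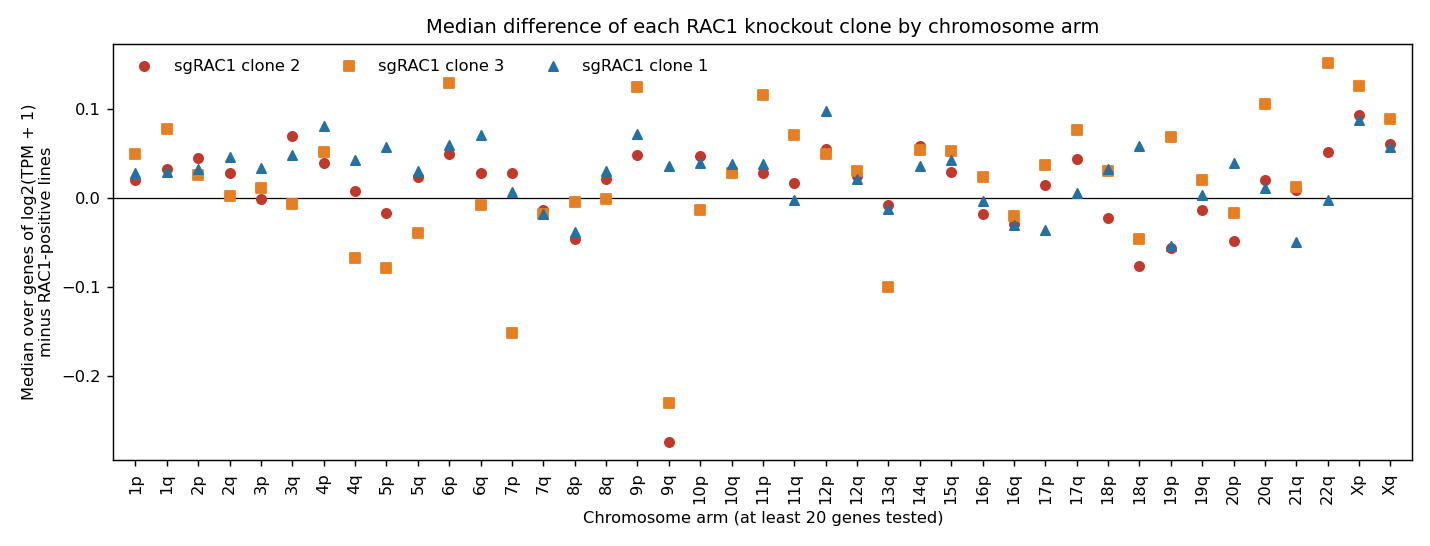
Median over genes of log2(TPM + 1) minus the RAC1-positive mean (vertical axis) for each chromosome arm with at least 20 genes (horizontal axis), in sgRAC1 clone 2 (circles), clone 3 (squares) and clone 1 (triangles). On 9q clone 2 is at -0.27 and clone 3 at -0.23 while clone 1 is at 0.04, and the next lowest symbol is clone 3 on 7p at -0.15. The arm 9q was chosen on these values.

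The order of genes along the chromosome was examined next. Genes starting from 68 Mb were taken as the long arm. The first 10 of these with a mean of at least 10 TPM ran from SMC5 at 70258978 to RFK at 76385526. They were all below 0 between the guides, with a median of -0.22. The last 10 short arm genes at that level, up to MIR4477A at 41233755, had 4 below 0 and a median of 0.07. At the other end, the last 10 long arm genes at that level, from TMEM141 at 136791344 to MRPL41 at 137551879, were again all below 0, with a median of -0.21. These long arm genes include the listed ANXA1 and EDF1. Some lay above the RAC1-positive mean in both clones 2 and 3, such as TMEM2, NMRK1 and TMEM141, and others below it, such as RFK and TUBB4B. Between these ends the medians per 10 Mb were -0.33 from 68 to 78 Mb (19 genes), -0.41 from 78 to 88 Mb (23 genes), -0.36 from 88 to 98 Mb (57 genes) and -0.44 from 98 to 108 Mb (35 genes). They were -0.32 from 108 to 118 Mb (43 genes), -0.25 from 118 to 128 Mb (61 genes) and -0.25 from 128 to 138 Mb (124 genes). Of the stretches up to 138 Mb those beyond 118 Mb were the closest to 0. Beyond 138 Mb there were only 2 genes, with a median of 0.07 and none below 0. On the short arm the stretches ran from -0.09 (6 genes) to 0.04 (82 genes). The 11 genes that start between 43 and 68 Mb, which were put in neither arm, had a median of -0.13.

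**Figure D3:**
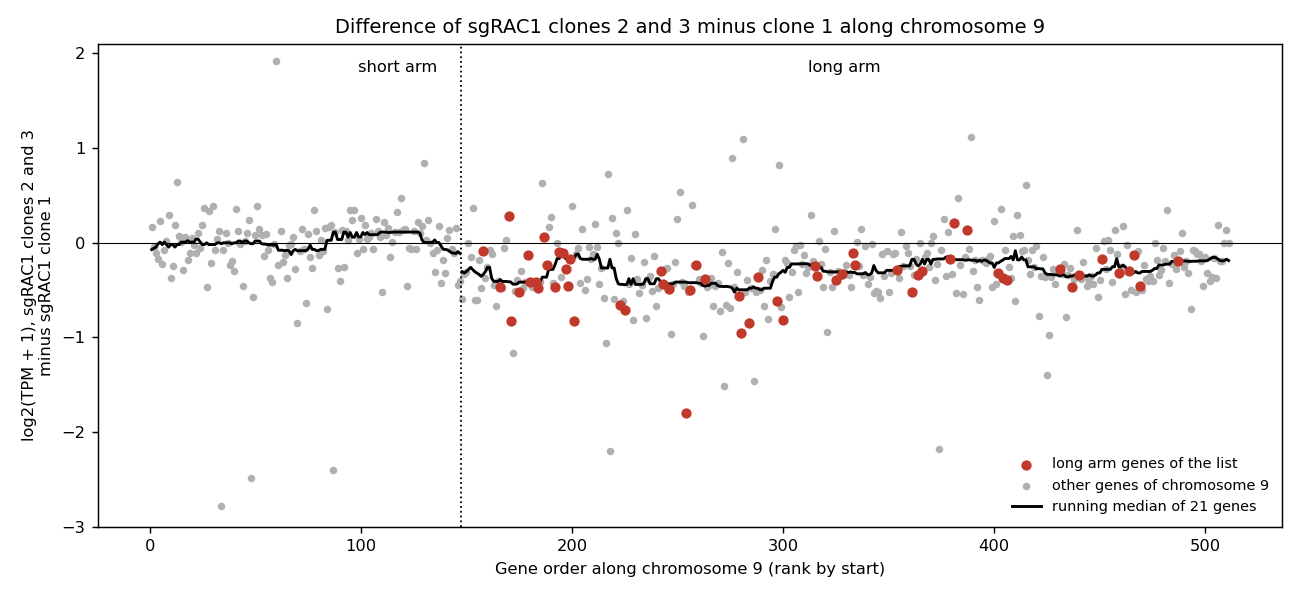
Difference of log2(TPM + 1), sgRAC1 clones 2 and 3 minus clone 1 (vertical axis), for each gene of chromosome 9 in order along the chromosome (horizontal axis, rank), with the listed genes in red, other genes in grey and a running median within each arm as a line. The line lies around 0 over the short arm and below 0 over the long arm, where TGFBR1 at -1.80 is the lowest listed gene.

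Gene by gene, all 4 libraries of clones 2 and 3 were below both libraries of clone 1 for 39 of the 58 listed genes (67.2%) and above both for none. Over all genes tested, 7.57% were below and 7.51% above in this way. The shares below were 41.5% of the other long arm genes (127 of 306, with 4 above), 5.44% of the short arm genes (8 of 147) and 7.38% of genes of other chromosomes. Under the stricter condition, that the 4 libraries lie below all 8 others, RAC1-positive ones included, 16 of 58 listed genes qualified (27.6%), against 0.697% of all genes. They were UBQLN1, ISCA1, CKS2, NOL8, FANCC, ANP32B, SEC61B, TEX10, RAD23B, CTNNAL1, UGCG, PPP6C, GLE1, SET, WDR5 and MRPS2. Without sgNTC clone 2 replicate 1 the count was 17, against 0.875% of all genes. Of the other long arm genes 36 of 306 qualified (11.8%), and of the short arm genes 0 of 147. The list and its arm were chosen on these contrasts, so the counts of long arm genes are not independent of them.

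**Figure D4:**
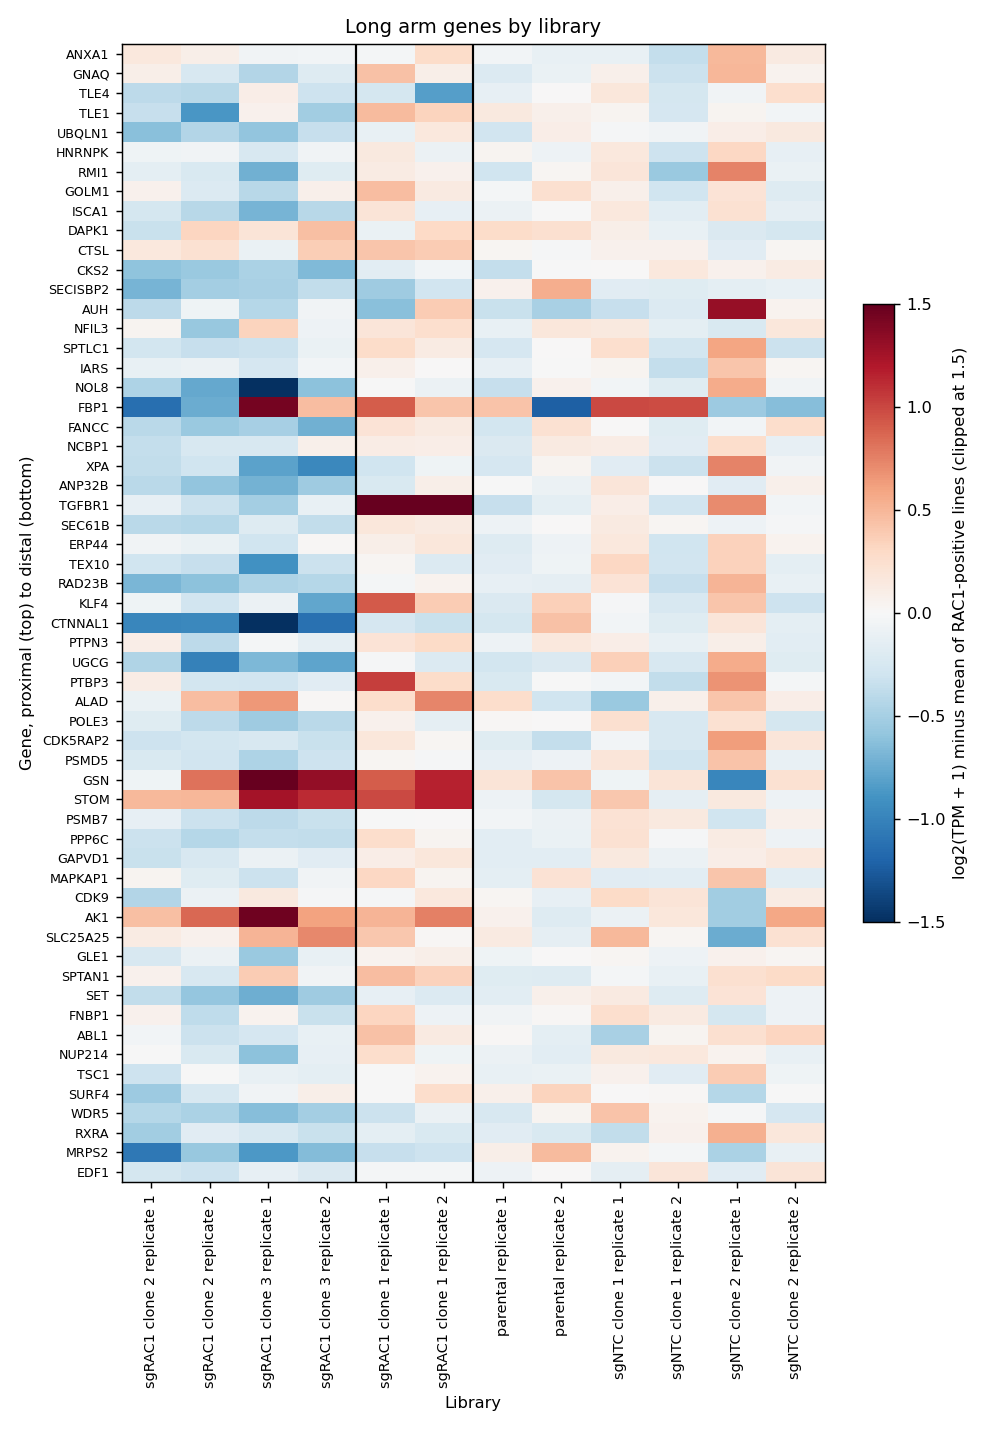
Each listed gene (rows, from the centromere at the top to the telomere at the bottom) in each library (columns, with lines between sgRAC1 clones 2 and 3, sgRAC1 clone 1 and the RAC1-positive lines), coloured by log2(TPM + 1) minus the RAC1-positive mean and clipped at 1.5. Rows such as CKS2, CTNNAL1, SET and MRPS2 are blue in the first 4 columns, TGFBR1 is red in both columns of clone 1, and GSN and STOM are red in most knockout columns.

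All 7 genes of DNA repair and the cell cycle lay fully below clone 1. That means all 4 libraries of clones 2 and 3 were under both of clone 1. The share was 67.2% of the listed genes and 7.57% of all genes tested. The list and the roles were chosen with these values known, so nothing is read from the counts per role. The median of this role was -0.43, with a range from -0.71 (FANCC) to -0.35 (POLE3). CKS2, a subunit of cyclin-dependent kinases, had 2160 and 2231 TPM in clone 2, 2365 and 2066 TPM in clone 3, and 2932 and 3175 TPM in clone 1. The RAC1-positive libraries ran from 2566 to 3645 TPM with a median of 3363 TPM. CKS2 was thus lowest in the 4 libraries of clones 2 and 3, which overlapped with no other library, and the difference from clone 1 was -0.47 (SE 0.11). FANCC, a core protein of the Fanconi anemia pathway for crosslink repair, was at 3.40 to 4.49 TPM in clones 2 and 3, 7.34 and 6.93 TPM in clone 1, and 4.98 to 7.73 TPM in the RAC1-positive lines. RAD23B, which binds damaged DNA with XPC, was at 28.9 to 34.7 TPM, against 46.1 and 49.1 TPM in clone 1 and 36.9 to 67.6 TPM in the RAC1-positive lines. XPA, the damage verification factor of nucleotide excision repair, was at -0.34 in clone 2, -0.89 in clone 3 and -0.18 in clone 1 relative to the RAC1-positive mean. The others of the group were POLE3, a small subunit of DNA polymerase epsilon, RMI1 of the BLM complex and the centrosomal protein CDK5RAP2.

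Among 7 genes of RNA processing and nuclear transport, 5 lay fully below clone 1 and the median was -0.34. HNRNPK, an abundant RNA-binding protein, was one of those that did not. It had 709 and 713 TPM in clone 2, 627 and 714 TPM in clone 3, and 821 and 694 TPM in clone 1, with 596 to 915 TPM in the RAC1-positive libraries (median 731 TPM). The groups overlapped, and the difference between the guides was -0.13 (SE 0.18), or 0.04 in batch 2 alone. NOL8, a nucleolar protein, had 27.0 and 21.7 TPM in clone 2, 11.2 and 24.2 TPM in clone 3, and 37.5 and 35.3 TPM in clone 1. Its RAC1-positive libraries ran from 29.3 to 55.9 TPM with a median of 36.3 TPM. All 4 libraries of clones 2 and 3 were below these, with replicate 1 of clone 3 far below its partner, and the difference was -0.83 (SE 0.33). The splicing regulator PTBP3 was also lower in clones 2 and 3 than in clone 1 (-0.81, SE 0.30). Relative to the RAC1-positive mean, clone 1 stood at 0.66, clone 2 at -0.08 and clone 3 at -0.23. Clone 1 had 89.8 TPM in replicate 1 and 52.5 TPM in replicate 2. The second was inside the RAC1-positive range of 33.3 to 69.5 TPM, whose top was sgNTC clone 2 replicate 1. The mRNA export factor GLE1, the cap-binding protein NCBP1, TEX10 and the nucleoporin NUP214 ranged from -0.38 to -0.29.

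All 4 genes of protein degradation lay fully below clone 1, with a median of -0.31. PSMB7, a catalytic subunit of the proteasome, had 928 and 811 TPM in clone 2, 770 and 804 TPM in clone 3, and 1009 and 1013 TPM in clone 1. Its RAC1-positive libraries ran from 821 to 1177 TPM (median 1025 TPM), so only 1 of the 4 libraries of clones 2 and 3 reached into their range. The bottom of that range was sgNTC clone 2 replicate 1, the library that stands apart. The next lowest RAC1-positive library, parental replicate 2, had 949 TPM, above all 4 libraries of clones 2 and 3. The difference was -0.29 (SE 0.11). UBQLN1, a shuttle for ubiquitylated proteins, was at 12.6 to 15.5 TPM in clones 2 and 3, 18.4 and 22.4 TPM in clone 1, and 16.2 to 22.3 TPM in the RAC1-positive lines. The lysosomal protease CTSL was an exception in level: it was above the RAC1-positive mean in clone 2 (0.19), clone 3 (0.14) and clone 1 (0.40), and lower in clones 2 and 3 than in clone 1 by a difference of -0.23.

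In the secretory pathway 4 of 5 genes lay fully below clone 1, with a median of -0.34. SEC61B, a subunit of the channel through which proteins enter the endoplasmic reticulum, had 273 and 268 TPM in clone 2, 315 and 280 TPM in clone 3, and 406 and 397 TPM in clone 1. Its RAC1-positive libraries ran from 342 to 398 TPM with a median of 361 TPM. The 4 libraries of clones 2 and 3 were the lowest of the 12, and the difference of -0.50 (SE 0.06) had the smallest error among the listed genes. The Golgi protein GOLM1, the redox protein ERP44 and the trafficking factor GAPVD1 were at -0.42, -0.23 and -0.34. The cargo receptor SURF4 overlapped with clone 1, since clone 2 stood at -0.39 and clone 3 at 0.02 relative to the RAC1-positive mean.

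Signalling genes had the lowest median of the 9 role groups between the guides, -0.46. Of the 7 with enough signal 6 lay fully below clone 1. Relative to the RAC1-positive mean the medians of this role were -0.16 in clone 2, -0.19 in clone 3 and 0.18 in clone 1. TGFBR1, the type I receptor for TGF-beta, had 31.1 and 26.9 TPM in clone 2, 23.4 and 31.2 TPM in clone 3, and 101 and 98.4 TPM in clone 1. The RAC1-positive libraries ran from 26.4 to 56.0 TPM (median 31.8 TPM). Clone 1 was thus the line that stood out, by 1.53 above the RAC1-positive mean, while clones 2 and 3 were within the RAC1-positive range or just under it. The difference between the guides of -1.80 (SE 0.24) was the lowest of all listed genes. PPP6C, the catalytic subunit of protein phosphatase 6, had 45.4 and 42.1 TPM in clone 2, 44.2 and 44.0 TPM in clone 3, and 68.8 and 58.6 TPM in clone 1, with 51.0 to 66.7 TPM in the RAC1-positive libraries (median 55.1 TPM). Here clones 2 and 3 were the low lines, below all 8 others, with a difference of -0.52 (SE 0.10). The kinase DAPK1 was near the level limit and overlapped, at 0.450 and 1.30 TPM in clone 2, 1.10 and 1.51 TPM in clone 3, 0.717 and 1.25 TPM in clone 1 and 0.527 to 1.21 TPM in the RAC1-positive libraries (median 0.824 TPM), with a difference of 0.06 (SE 0.21) that was -0.14 without sgRAC1 clone 1 replicate 1. ABL1 (-0.47), the G protein subunit GNAQ (-0.46), the mTORC2 subunit MAPKAP1 (-0.30) and TSC1 (-0.17), which restrains mTORC1, made up the rest. TSC1 qualified by a small margin, with at most 6.659 TPM in clones 2 and 3 and at least 6.660 TPM in clone 1.

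The 10 genes of transcription and chromatin had a median of -0.29, and 6 lay fully below clone 1. SET, a histone chaperone and inhibitor of protein phosphatase 2A, had 356 and 308 TPM in clone 2, 276 and 318 TPM in clone 3, and 423 and 400 TPM in clone 1. Its RAC1-positive libraries ran from 403 to 532 TPM with a median of 462 TPM, so no library of clones 2 and 3 overlapped with another line. The difference was -0.39 (SE 0.14). KLF4, a zinc finger factor, was low throughout, at 1.72 and 1.33 TPM in clone 2, 1.68 and 0.655 TPM in clone 3, 4.36 and 2.69 TPM in clone 1 and 1.28 to 2.80 TPM in the RAC1-positive libraries (median 1.62 TPM). As with TGFBR1, clone 1 was the high line, and the difference was -0.95 (SE 0.33), or -0.42 with a pseudocount of 5. TLE4, a corepressor, had 0.769 and 0.742 TPM in clone 2, 1.498 and 0.878 TPM in clone 3, 0.947 and 0.313 TPM in clone 1 and 0.946 to 1.78 TPM in the RAC1-positive libraries (median 1.30 TPM), with a difference of 0.29 (SE 0.22). That value was 0.00 without sgRAC1 clone 1 replicate 2 and 0.57 without replicate 1 of that clone, and with a pseudocount of 0.1 it was 0.65 and with one of 5 it was 0.09. The chaperone ANP32B (-0.49), the corepressor TLE1 (-0.83), WDR5 of histone methyltransferase complexes (-0.30), the coactivator EDF1 (-0.19), NFIL3 (-0.28), the elongation kinase CDK9 (-0.17) and the retinoid receptor RXRA (-0.13) were all below 0.

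The 8 genes of metabolism were mixed. They had a median of -0.35, 3 lay fully below clone 1, and 2 were above 0. ISCA1, which takes part in mitochondrial iron-sulfur assembly, had 117 and 105 TPM in clone 2, 86.2 and 105 TPM in clone 3, and 160 and 129 TPM in clone 1, with 126 to 164 TPM in the RAC1-positive libraries (median 135 TPM). The 4 libraries of clones 2 and 3 were below all others, and the difference was -0.48 (SE 0.16), or -0.29 in batch 2 alone. UGCG, which makes glucosylceramide, was at 39.2 to 58.6 TPM in clones 2 and 3, 79.4 and 69.1 TPM in clone 1 and 66.1 to 119 TPM in the RAC1-positive lines, and SPTLC1, a subunit of serine palmitoyltransferase, was lower by a difference of -0.46. AK1, an adenylate kinase, went the other way: it had 4.72 and 6.60 TPM in clone 2, 10.6 and 5.39 TPM in clone 3, 4.96 and 6.09 TPM in clone 1 and 1.92 to 5.28 TPM in the RAC1-positive libraries (median 3.16 TPM). All 3 knockout line means of AK1 were above those lines, and the difference between the guides was 0.21 (SE 0.38), or -0.00 without sgRAC1 clone 3 replicate 1. SLC25A25, a mitochondrial carrier, had 0.812 and 0.738 TPM in clone 2, 1.37 and 1.75 TPM in clone 3, 1.201 and 0.693 TPM in clone 1 and 0 to 1.34 TPM in the RAC1-positive libraries (median 0.763 TPM). Its groups overlapped, and the difference was 0.14 (SE 0.30), or -0.05 without sgRAC1 clone 1 replicate 2. FBP1, the gluconeogenic fructose bisphosphatase, differed from line to line (clone 2 at -0.94, clone 3 at 0.95, clone 1 at 0.66), and AUH and ALAD overlapped with clone 1.

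Of the 7 genes of the cytoskeleton and membrane 2 lay fully below clone 1, CTNNAL1 and PTPN3, and the median was -0.27. CTNNAL1, a relative of alpha-catenin, had 142 and 144 TPM in clone 2, 99.7 and 129 TPM in clone 3, and 236 and 224 TPM in clone 1. The RAC1-positive libraries ran from 235 to 383 TPM with a median of 265 TPM. Clones 2 and 3 were at -0.97 and -1.31 relative to the RAC1-positive mean, the lowest of any listed gene in either clone, and clone 1 was at -0.29. ANXA1, a membrane-binding annexin, had 1014 and 970 TPM in clone 2, 878 and 883 TPM in clone 3, 891 and 1106 TPM in clone 1 and 711 to 1277 TPM in the RAC1-positive libraries (median 865 TPM). Its lines overlapped, with a difference of -0.09 (SE 0.13) that was 0.07 without sgRAC1 clone 1 replicate 2. The actin-severing protein GSN and the membrane protein STOM were above the RAC1-positive mean in all knockout clones, GSN by 0.38 in clone 2, 1.45 in clone 3 and 1.03 in clone 1, and STOM by 0.49, 1.19 and 1.07. The spectrin SPTAN1 and FNBP1, which bends membranes at sites of actin assembly, were lower in clones 2 and 3 than in clone 1 by differences of -0.37 and -0.27.

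The 3 genes of translation had the median closest to 0 between the guides, -0.17. Relative to the RAC1-positive mean the medians of this role were -0.60 in clone 2, -0.43 in clone 3 and -0.33 in clone 1. IARS, the isoleucyl-tRNA synthetase, had 198 and 202 TPM in clone 2, 181 and 209 TPM in clone 3, 227 and 216 TPM in clone 1 and 167 to 287 TPM in the RAC1-positive libraries (median 216 TPM). It lay below clone 1 but inside the RAC1-positive range, with a difference of -0.17 (SE 0.15), or -0.07 in batch 2 alone. MRPS2, a mitochondrial ribosomal protein, was below the RAC1-positive mean in clone 2 (-0.82), clone 3 (-0.76) and clone 1 (-0.33). SECISBP2, which is needed to insert selenocysteine, was likewise at -0.60, -0.43 and -0.41, so clone 1 shared the lower level.

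**Figure D5:**
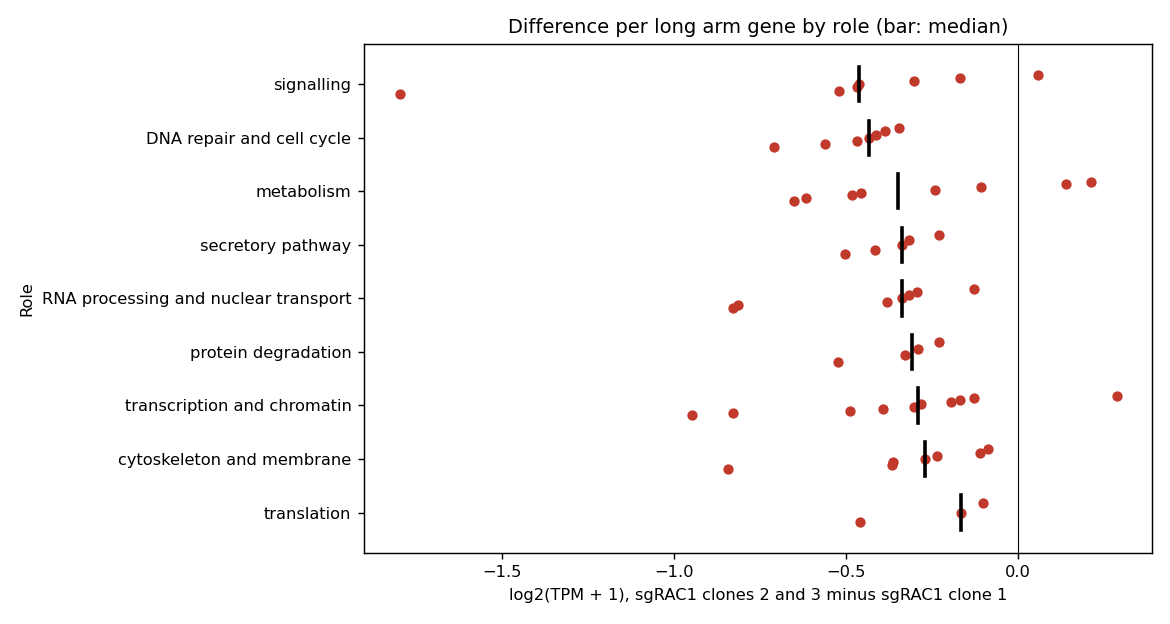
Difference of log2(TPM + 1), sgRAC1 clones 2 and 3 minus clone 1 (horizontal axis), for each listed gene (points) by role (vertical axis), with the median of each role as a bar. Every role has its median below 0, from -0.46 for signalling to -0.17 for translation, and only DAPK1, SLC25A25, AK1 and TLE4 lie right of 0.

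The listed genes were then compared in contrasts that did not choose them, in limma fits over all 17367 genes with Benjamini-Hochberg adjustment. Between the clones of one guide, clone 2 minus clone 3, the median over the listed genes was -0.00, with 29 of 58 below 0, against -0.01 over all genes. No listed gene passed an adjusted p of 0.05, and 0% of all genes did, while 3 listed and 577 of all genes had an unadjusted p under 0.05. FBP1 had the largest difference, -1.89 (SE 0.52, limma adjusted p = 1). STOM (-0.70) and GSN (-1.07) were the other two with a small unadjusted p, and XPA had the highest difference, 0.55. The clones of guide sgRAC1_2 were thus not told apart by the test at the level of single listed genes, which with 2 libraries a line does not show that they were alike.

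Among lines that carry RAC1, the sgNTC clones minus the parental line gave a median of 0.09 over the listed genes, against -0.05 over all genes. None of the 58 was called, against 0.00576% of all genes (1 gene), and 3 listed genes (CDK5RAP2, CKS2 and SECISBP2) and 680 of all genes had an unadjusted p under 0.05. The count called over all genes, here and between clones 2 and 3, changed with the library left out. sgNTC clone 1 minus sgNTC clone 2 gave a median of -0.10, none of the listed genes called and 0% of all genes, with 3 listed (ANXA1, CDK5RAP2 and FBP1) and 1322 of all genes at an unadjusted p under 0.05. This contrast turned on 1 library. Without sgNTC clone 2 replicate 2, which leaves the library that stands apart as the only one of its line, 5 listed genes (ANXA1, AUH, CDK5RAP2, XPA and PSMB7) and 2351 of all genes passed (limma adjusted p of the 5 between 0.0281 and 0.0485). The lone library is then assumed to vary like those of the other lines, so these calls describe that library and no direction is drawn from them. Batch 2 minus batch 1, taken within each line, gave a median of -0.06, with none of the listed genes called against 0.0115% of all genes (2 genes). SURF4 and UGCG had the smallest adjusted p among the listed genes (both 0.497 in limma), and 2 listed and 1421 of all genes had an unadjusted p under 0.05.

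Within batches the difference between the guides had the same sign. It was -0.38 in batch 1, with 51 of 58 genes below 0, and -0.33 in batch 2, with 54 of 58 below 0. Relative to the RAC1-positive lines of the same batch, clone 2 stood at -0.36 in batch 1 and -0.20 in batch 2, clone 3 at -0.38 and -0.14, and clone 1 at 0.06 and 0.13. The batches differed most for clone 3. Batch 1 is the one that holds sgNTC clone 2 replicate 1.

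Level and base composition moved with the differences to some degree. For clones 2 and 3 minus clone 1, the 24 listed genes at 50 TPM or more had a median of -0.34 and the 16 between 10 and 50 TPM one of -0.38, and every gene of both classes was below 0. The 18 under 10 TPM had a median of -0.20 with 14 below 0. In classes of transcript G and C content set over all genes with a value, the medians were -0.46 (low, 19 genes), -0.34 (middle, 22 genes) and -0.24 (high, 17 genes) for the listed genes. For the other long arm genes they were -0.43, -0.34 and -0.22, and for genes of other chromosomes -0.06, -0.00 and 0.11. The medians of the other long arm genes were below those of other chromosomes in each class, on an arm that was chosen with these values known. The part of base composition in the differences was not tested.

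In the authors' deposited table, which compares the knockout with the RAC1-positive lines (its direction was read from the sign of RAC1), 7 of the 58 listed genes were lower at an adjusted p under 0.05, against 4.06% of all genes, and 2 were higher, against 5.68%. The rule that chose the list set the same lines against each other, so nothing is read from these counts. The authors' deposited table gave CTNNAL1 (-0.81, adjusted p = 0.0007), MRPS2 (-0.72, adjusted p = 0.0007), SECISBP2 (-0.58, adjusted p = 0.0011) and SET (-0.41, adjusted p = 0.0033) among the 7 that fell. UGCG, CKS2 and ANP32B completed them in the authors' deposited table, and the 2 that rose were GSN (log2 fold change 1.17) and STOM (0.94).

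VAV2, the exchange factor for RAC1 named in the title of the study, is also a gene of the long arm (chromosome 9, 133761894 to 133992324) but not of the list. It had 1.71 and 1.28 TPM in clone 2, 2.27 and 2.61 TPM in clone 3, and 3.85 and 2.71 TPM in clone 1, with 1.48 to 3.86 TPM in the RAC1-positive libraries (median 2.61 TPM). All 4 libraries of clones 2 and 3 were below both of clone 1 and within or under the RAC1-positive range, and the difference between the guides was -0.54.

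The counting step sets a limit for some of the listed genes. HNRNPK overlaps RMI1 by 257 bases and NCBP1 overlaps XPA by 19351 bases in the annotation, and HNRNPK and SET have near-identical pseudogene copies elsewhere in the genome. No source used here states the strand setting, and reads may be shared between the genes of each pair or copy.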

How the data were processed

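RNA sequencing of 12 libraries of DU145 cells was analysed, 2 replicates of each of 6 lines. Libraries were made from 160 ng of RNA with SMARTScribe reverse transcription and tagmentation, per the labels' protocols. Of the software, bcl2fastq, STAR 2.6.1d and DESeq2 are listed in the submitters' processing notes, with GRCh38 as the build. No source used here names the counter, the strand setting or the annotation. The authors deposited TPM per library, which are scaled to 1000000 and keep no depth, so no counting interval could be given. For 15140 genes the authors deposited, per the file headers, their own comparison: p-values, adjusted p-values, a Wald score, log2 fold changes and their errors, and the mean signal (normalized counts). Its model is not stated in any source used here.

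Values were taken as log2(TPM + 1), which understates changes of genes near 1 TPM, and genes needed a mean of 1 TPM in either genotype. Differences are of line means, each the mean of 2 libraries. The SE of a difference between guides comes from how far paired libraries of the same line lie apart, pooled over lines. It holds no spread between clones. Contrasts that did not choose the genes were tested with limma 3.58.1 in R 4.3.3 (variance trend, Benjamini-Hochberg, threshold 0.05), after tests on simulated data. The genes, their 9 role groups and the marker lists were chosen with earlier results of these data known. Values in every library are given for the most abundant gene of each role and for the 4 lowest and 4 highest differences between guides. Further genes are named with single values. The result of 1 marker list is not reported here.

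Positions came from RefSeq (GRCh38.p14) by symbol or synonym for 70.0% of the genes tested and for all 59 listed genes (IARS is IARS1 there). Chromosome 9 genes starting below 43 Mb were taken as short arm and those from 68 Mb as long arm. The 11 genes between were set aside, and other arms were parted at approximate centromere positions. Transcript base composition came from GENCODE release 29. It was known for 82.0% of the other long arm genes and at least 81.6% of every set.

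The labels tie the replicate number to a batch, so a fit with the replicate block was run. Over 15 pairs of lines, deviations of same-numbered libraries correlated at -0.13 to 0.30 (median 0.026). The highest correlation of 2 libraries was 0.964, and no pair was identical. Alternatives covered scaling, pseudocount, level filter, batch, lines used for comparison, the summary over genes and each library left out.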

Additional observations from a re-analysis of the deposited data

Results flagged for a closer look

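In 36 groups of 4 or 6 libraries, 1 library for each of 3 genes was far from the others of its group by the ratio of its gap to the whole range. Chance gives this in about 1 in 20 groups. HNRNPK was at 627 TPM in sgRAC1 clone 3 replicate 1, against 709 to 714 TPM in the other 3 libraries of clones 2 and 3. CKS2 was at 2566 TPM in parental replicate 1, against 3275 to 3645 TPM in the other 5 RAC1-positive libraries. TGFBR1 was at 56.0 TPM in sgNTC clone 2 replicate 1, the library that stands apart, against 26.4 to 36.4 TPM in the other 5 RAC1-positive libraries.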

How the results depend on the processing

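The median between the guides over the listed genes lay between -0.39 and -0.30 under every alternative of scaling, pseudocount, filter, summary and batch, and between -0.39 and -0.32 with any 1 library left out. With no level filter the other long arm genes stood at -0.15, and in batch 1 alone clone 3 stood at -0.38, and the cause of neither was tested. Leaving out 1 library at a time, clone 2 ran from -0.32 to -0.21, clone 3 from -0.32 to -0.17 and clone 1 from 0.06 to 0.13, and the other long arm genes ran from -0.33 to -0.21. The short arm genes changed sign with the library left out, from -0.05 to 0.04. The count of listed genes called was 0 under each alternative of the 4 tested contrasts with 1 exception: for sgNTC clone 1 minus sgNTC clone 2 it ran from 0 to 5 when 1 library was left out. In the fit with the replicate block 0 listed genes were called in each line contrast, as without it, and 4, 5 and 3 of them had an unadjusted p under 0.05, against 3.6%, 5.26% and 8.11% of all 17367 genes. Of 204 values of 17 single genes under alternatives, 10 had the opposite sign, in 5 genes with small differences (ANXA1, SLC25A25, HNRNPK, AK1 and DAPK1), and the cause was not tested. ANXA1 was at 0.08 in batch 1 alone and 0.07 without sgRAC1 clone 1 replicate 2. TPM keeps no depth, so what depth limits cannot be said, and genes near 1 TPM give the least certain differences.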
